A study of Mus musculus with 16 samples.

Results

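Wnt signalling in the lungs of Fra-2 transgenic (TG) mice was examined through 51 genes, taken by symbol from the 24306 genes measured on the arrays. They comprised 19 Wnt ligands, 10 Frizzled receptors, the co-receptors Lrp5, Lrp6, Ror1 and Ror2, 4 R-spondins, the 3 R-spondin receptors Lgr4, Lgr5 and Lgr6, 6 secreted Wnt binders (Sfrp1, Sfrp2, Sfrp4, Sfrp5, Frzb and Wif1), 4 Dickkopf proteins and Axin2. The rule for members used names and not values, but it was set with earlier results of these data known. Lung homogenates of 16 mice aged 8 weeks were hybridised to single-colour Agilent mouse arrays, with 4 TG females, 4 TG males, 4 wild-type (WT) females and 4 WT males. TG mice overexpress Fra-2, an AP-1 transcription factor encoded by Fosl2, and their cells carry a GFP reporter, whereas WT mice were littermates without the transgene on the same C57BL6/J background after repeated back-crossing. The sources used here do not give the promoter of the transgene. No animal is identified in the labels, each array was taken for 1 mouse, and p-values measure the spread between these arrays.

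Wnt ligands are secreted lipid-modified proteins that bind Frizzled receptors. With Lrp5 or Lrp6 as co-receptor they stabilise β-catenin, which switches on target genes together with TCF/LEF factors, and with Ror1, Ror2 or other partners they act on cell movement and polarity without β-catenin. R-spondins, through Lgr4, Lgr5 and Lgr6, keep Frizzled receptors at the cell surface, whereas Sfrp proteins, Frzb and Wif1 bind Wnts. Some Dickkopf proteins, but not all, block Lrp5 and Lrp6, and Axin2 is a target gene that feeds back on the pathway. In the lung, Wnt2 from the mesenchyme takes part in laying down the organ and Wnt5a in shaping its branches, and Wnt signals later support alveolar type 2 cells.

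All values are log2 values after background correction and quantile normalization between arrays, 1 value per array feature. A gene was represented by its brightest feature, and levels are compared between mice for the same feature, not between genes. The genotypes were compared by limma in a model of 4 groups, and genes with a p below 0.05 once corrected by Benjamini-Hochberg across all 24306 genes are referred to as called. Fosl2 itself, on its brighter feature, was at 9.40 ± 0.44 in TG and 9.55 ± 0.50 in WT lungs (SD, n = 8 each; log2 fold change -0.14, adjusted p = 0.721, limma), while a dimmer feature reached 6.56 to 10.66 in TG and 2.39 to 4.91 in WT lungs. Markers of alveolar type 1, alveolar type 2 and club cells were all measured well above the dim range described for the members. None of 8, 8 and 4 such markers was called, against 13.1% of all genes (1, 0 and 0 at an unadjusted p under 0.05, limma). The means over the lists were 12.67 to 13.18, 14.49 to 14.76 and 15.13 to 15.94 in TG mice. In WT mice they were 12.99 to 13.31, 14.49 to 14.77 and 15.03 to 15.98. Several markers were near the top of the arrays' scale, where a difference between mice could be understated. Of 8 NK cell markers 7 were lower in TG lungs, where 7.08% of all genes were lower. The mean log2 value over the list was 4.28 to 5.25 in TG and 7.67 to 8.73 in WT mice. Correlations between arrays were 0.954 to 0.989. The arrays of WT male replicate 1 and of TG female replicates 1 and 4 stood apart from their genotype on the first axis of a principal component analysis. TG female replicates 1 and 4 lay at -89.5 and -76.6, against -30.6 to -4.02 in the other TG mice. WT male replicate 1 lay at -11.5, among the TG values, against 27.1 to 45.6 in the other WT mice. Counts without these arrays are given with the results. In a homogenate, fewer cells of a type and less RNA per cell cannot be told apart.

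Promoter sequence is shown for 3 members: Sfrp2, which separated the genotypes most cleanly, Wnt2, the mesenchymal ligand that was lower in TG lungs, and Ror2, which holds a full AP-1 motif, the class of site that Fra-2 binds. Each run of 300 bases is from RefSeq on GRCm38.p6 and covers 250 bases before to 50 bases after the gene's start, written 5′ to 3′ on the gene's strand. Sfrp2 lies at chr3:83766071-83766370 (+ strand), Wnt2 at chr6:18030396-18030695 (- strand) and Ror2 at chr13:53286075-53286374 (- strand). Capitals mark the AP-1 motif TGAGTCA in Ror2, and the other runs hold no motif searched.
Sfrp2: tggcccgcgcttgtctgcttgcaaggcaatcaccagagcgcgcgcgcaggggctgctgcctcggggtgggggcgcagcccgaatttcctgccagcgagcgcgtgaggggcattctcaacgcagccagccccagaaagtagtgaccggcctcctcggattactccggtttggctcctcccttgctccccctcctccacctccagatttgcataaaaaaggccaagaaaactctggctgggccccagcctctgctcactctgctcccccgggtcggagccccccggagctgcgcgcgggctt
Wnt2: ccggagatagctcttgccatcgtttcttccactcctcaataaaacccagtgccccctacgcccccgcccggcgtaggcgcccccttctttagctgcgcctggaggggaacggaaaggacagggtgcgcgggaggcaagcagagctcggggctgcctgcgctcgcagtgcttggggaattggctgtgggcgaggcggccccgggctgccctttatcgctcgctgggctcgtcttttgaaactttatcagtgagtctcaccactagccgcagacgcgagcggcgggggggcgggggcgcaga
Ror2: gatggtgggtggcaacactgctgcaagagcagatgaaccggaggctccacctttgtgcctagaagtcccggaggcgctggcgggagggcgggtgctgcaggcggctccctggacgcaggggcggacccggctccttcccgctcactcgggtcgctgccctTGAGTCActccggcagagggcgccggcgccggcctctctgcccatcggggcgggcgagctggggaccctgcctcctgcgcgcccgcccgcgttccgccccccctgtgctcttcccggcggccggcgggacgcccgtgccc
The table of promoters held 37 windows for 34 of the 51 members, among them 7 of the 12 members called between genotypes (Sfrp2, Wnt9a, Wnt7a, Ror1, Fzd1, Wnt4 and Wnt2). The AP-1 motif TGACTCA or TGAGTCA, which are reverse complements of each other, was found in 2 of the 37 windows, against 5.20% of all 32851 promoter windows of the same length. These were Ror2, where it starts 90 bases before the gene's start, and Wnt5b, where it starts 191 bases before it. The TCF/LEF motif CTTTGAT or CTTTGAA, searched on both strands and sharing no letters with an AP-1 match in these windows, was found in 3 (Dkk1, Wnt11 and Wnt5b), against 8.65% of all windows. None of the 7 called members with a window held either motif, and a missing match says only that these letters are not in this window.

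Of the 51 members, 12 were called between TG and WT lungs (23.5%), against 13.1% of all genes tested. Lrp6, Sfrp2, Wnt4, Ror1, Fzd3, Lrp5 and Wnt5a were higher in TG lungs (13.7% of members, against 6.05% of all genes), and Sfrp4, Fzd1, Wnt2, Wnt7a and Wnt9a were lower (9.80%, against 7.08%). The changes were small on the fold scale, between 1.29-fold and 1.81-fold for the higher members and between 1.37-fold and 2.38-fold for the lower ones. Only Sfrp4 was both called and at least 2-fold different, as were 2.63% of all genes. The other 39 members did not pass, with log2 fold changes from -0.53 for Fzd2 to 0.51 for Frzb, and the median over all 51 was -0.05, against -0.03 over all genes. Brightness set a limit on what could be seen. Uty, a gene of the Y chromosome, read up to 4.09 in the 8 females, which lack it, and 17 members had a mean below that value. None of these dim members was called by limma or by the exact Wilcoxon test (1 at an unadjusted p under 0.05). They are called dim by their mean over all 16 mice, and single groups could lie higher, as Lgr5 at 4.15 in TG mice and Dkk2 at 4.29 in WT mice. All 12 called members were among the other 34 (35.3%), against 19.0% of the 15810 genes at or above the same value.

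**Figure D1:**
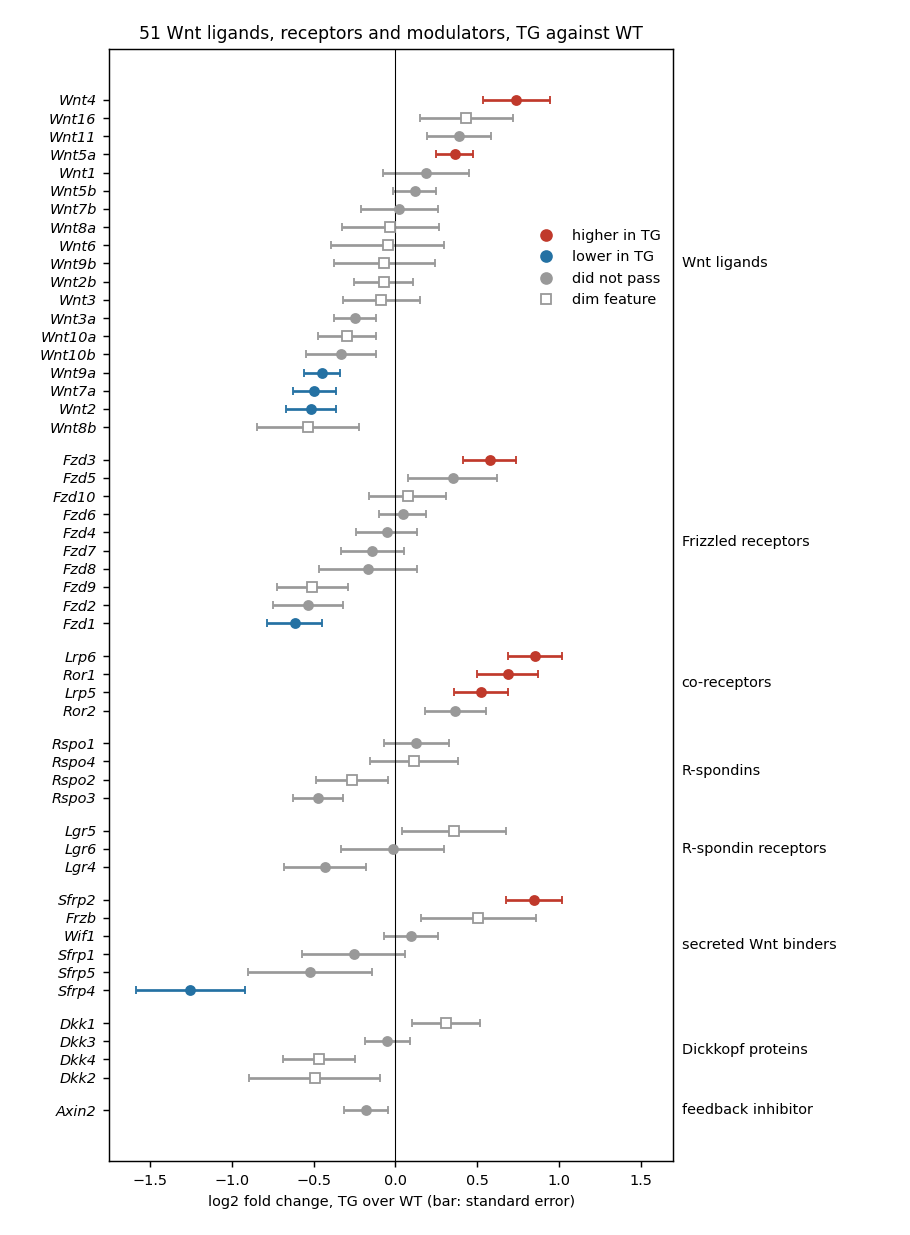
Log2 fold change of TG over WT (x axis, bar: standard error, limma, 8 mice per genotype) for each of the 51 members, grouped by role. Red points are called higher, blue points lower, grey points did not pass, and open squares are the 17 members whose mean was below 4.09. Of the 4 co-receptors, 3 lie to the right of 0 as called members and Sfrp4 lies farthest to the left at -1.25.

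Among the 19 Wnt ligands, 2 rose, 3 fell and 14 did not pass. Wnt2, Wnt7a and Wnt9a fell by similar amounts in TG lungs, whereas Wnt4 and Wnt5a rose. Wnt2, the ligand of the lung mesenchyme, was at 9.30, 9.96, 9.72 and 9.85 in TG females and 9.17, 9.98, 10.23 and 9.89 in TG males, against 10.44, 9.97, 10.41 and 10.20 in WT females and 10.24, 10.49, 10.45 and 10.04 in WT males. TG male replicates 2 and 3 lay within the WT range and the other 6 TG mice lay below every WT mouse. Its log2 fold change was -0.52 (standard error 0.15, adjusted p = 0.0383, limma), or 1.43-fold lower in TG lungs. Wnt7a, a ligand of limb and reproductive tract patterning, ranged from 8.20 to 8.85 with a median of 8.61 in TG mice and from 8.69 to 9.68 with a median of 9.06 in WT mice. The groups overlapped only at their edges, where TG male replicates 1 and 3 lay above the lowest WT mouse. The log2 fold change was -0.50 (standard error 0.13, adjusted p = 0.0241, limma), and a second feature of Wnt7a gave -0.60. Wnt9a, which acts in joint formation, read 6.86 to 7.65 (median 7.24) in TG mice and 7.54 to 7.99 (median 7.67) in WT mice. Only TG male replicate 4 reached the WT range, and the log2 fold change was -0.45 (standard error 0.11, adjusted p = 0.0149, limma). Wnt3a, the gene next to Wnt9a on chromosome 11 and a ligand of the β-catenin pathway, read 7.42 ± 0.27 in TG and 7.66 ± 0.18 in WT mice (SD, n = 8 each) and did not pass (log2 fold change -0.25, adjusted p = 0.224, limma).

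Wnt4, a ligand of kidney and female gonad development, was at 8.53, 7.62, 8.85 and 8.71 in TG females and 8.51, 8.24, 8.65 and 7.57 in TG males, against 7.28, 7.23, 7.72 and 7.90 in WT females and 7.76, 8.02, 7.37 and 7.47 in WT males. TG female replicate 2 and TG male replicate 4 lay among the WT values, and the other 6 TG mice lay above every WT mouse. TG over WT, the log2 fold change was 0.74 (standard error 0.20, adjusted p = 0.0282, limma), or 1.67-fold. It did not pass by the exact Wilcoxon test (adjusted p = 0.0671). Wnt5a, the ligand best known for signalling without β-catenin, ranged from 7.45 to 7.92 (median 7.58) in TG and from 7.02 to 7.62 (median 7.20) in WT mice. The change was the smallest of the called members, at 0.36 (standard error 0.11, adjusted p = 0.0457, limma). WT female replicate 1 was the WT mouse that reached farthest into the TG values. A second feature of Wnt5a gave 0.44 with a wider spread (adjusted p = 0.158 over all features, limma), and the third feature, at 3.19 ± 0.56 in TG and 3.24 ± 0.33 in WT mice (SD, n = 8 each), was dim. With the mean of its 3 features the log2 fold change was 0.25 and the call was lost (adjusted p = 0.210, limma). Wnt11, which also acts in cell movement, read 6.26 ± 0.49 in TG and 5.87 ± 0.41 in WT mice and Wnt10b, known for holding back fat cell formation, 6.44 ± 0.37 in TG and 6.78 ± 0.50 in WT mice (SD, n = 8 each), and neither passed (adjusted p = 0.208 and 0.342, limma). Wnt8b, Wnt10a and Wnt16 were dim, with means of at most 3.72 in either genotype. The 14 ligands that did not pass lay between -0.53 (Wnt8b) and 0.43 (Wnt16) on the log2 scale, 8 of them dim.

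Of the 10 Frizzled receptors, the cell surface receptors for Wnts, Fzd3 was higher and Fzd1 was lower in TG lungs, and 8 did not pass. Fzd1 was at 8.15, 9.06, 9.17 and 8.83 in TG females and 9.31, 8.96, 9.52 and 9.62 in TG males, against 9.86, 9.22, 9.88 and 9.77 in WT females and 9.26, 9.89, 9.82 and 9.85 in WT males. All WT mice but 2 lay above every TG mouse, while WT female replicate 2 and WT male replicate 1 lay among the upper TG values. Fzd1 was 1.53-fold lower in TG lungs, at -0.62 on the log2 scale (limma, standard error 0.17, adjusted p = 0.0280). Fzd3, known in mice for axon guidance and planar polarity, ranged from 5.70 to 6.59 (median 5.95) in TG and from 4.91 to 6.12 (median 5.46) in WT mice. The highest WT value was that of WT male replicate 1, an array that stood apart, and the other WT mice read at most 5.69, below every TG mouse. Its log2 fold change was 0.58 (standard error 0.16, adjusted p = 0.0302, limma). Fzd2 read 8.69 ± 0.63 in TG and 9.22 ± 0.34 in WT mice (SD, n = 8 each), a log2 fold change of -0.53 that did not pass (adjusted p = 0.113, limma). Fzd5 read 5.33 ± 0.67 in TG and 4.99 ± 0.50 in WT mice (SD, n = 8 each; adjusted p = 0.437, limma), and Fzd9 was dim, at 2.73 ± 0.40 in TG and 3.24 ± 0.49 in WT mice (SD, n = 8 each). Fzd4, the receptor of Norrin in blood vessels, read 11.48 ± 0.21 in TG and 11.54 ± 0.49 in WT mice (SD, n = 8 each).

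Of the 4 co-receptors, 3 were higher in TG lungs and 0 lower (0 lower at an unadjusted p under 0.05). Of all genes 6.05% were higher, and 19.0% of genes that were not dim were called in either direction. None of the co-receptors was dim. Their median log2 fold change was 0.61, against -0.03 over all genes. By the exact Wilcoxon test 2 of the 4 passed. Lrp6, which is phosphorylated when Wnt binds and recruits Axin, was at 11.80, 11.58, 11.21 and 12.09 in TG females and 11.56, 11.22, 11.38 and 11.05 in TG males, against 10.27, 10.47, 10.55 and 10.27 in WT females and 11.61, 10.75, 10.61 and 10.54 in WT males. WT male replicate 1 alone lay among the TG mice, and the other 7 WT mice lay below all TG mice. The log2 fold change was 0.85 (standard error 0.16, adjusted p = 0.00472, limma), or 1.81-fold, the lowest adjusted p of the 51. Without the 3 arrays that stood apart it was still called (adjusted p = 0.00150). A second Lrp6 feature, at a log2 value of 6.47 ± 0.31 in TG and 5.77 ± 0.32 in WT mice (SD, n = 8 each), gave 0.70 (adjusted p = 0.0156 over all features, limma). Lrp5, the close relative of Lrp6 known for its part in bone mass, ranged from 8.98 to 10.20 (median 9.30) in TG and from 8.28 to 9.24 (median 8.95) in WT mice. The highest values were those of TG female replicates 1 and 4, at 10.20 and 9.91, and 3 of the other TG mice lay within the WT range. Its log2 fold change of 0.52 (standard error 0.16) passed narrowly (adjusted p = 0.0461, limma), lost the call without the 3 arrays (adjusted p = 0.150) or with the mean of both features (log2 fold change 0.23, adjusted p = 0.232) and was -0.07 on a second feature at 6.95 ± 0.42 in TG and 7.01 ± 0.16 in WT mice (SD, n = 8 each).

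Ror1, a tyrosine kinase-like receptor for Wnt5a, was at 6.996, 5.75, 7.03 and 6.94 in TG females and 7.21, 6.74, 6.96 and 6.62 in TG males, against 5.53, 5.97, 6.23 and 5.71 in WT females and 6.19, 6.04, 6.57 and 6.50 in WT males. All TG mice but 1 lay above every WT mouse, and TG female replicate 2 lay near the lowest WT values. Ror1 was 1.61-fold higher, at 0.69 on the log2 scale (limma, standard error 0.19, adjusted p = 0.0272), and without the 3 arrays that stood apart the adjusted p was 0.153. Averaging its features gave 0.27 and the call was lost (adjusted p = 0.252, limma). Its second feature was dim, at 3.07 ± 0.37 in TG and 3.22 ± 0.35 in WT mice (SD, n = 8 each). Ror2, the related receptor whose promoter window holds an AP-1 motif, read 6.24 ± 0.53 in TG and 5.88 ± 0.39 in WT mice (SD, n = 8 each) and did not pass (log2 fold change 0.37, adjusted p = 0.218, limma).

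None of the 4 R-spondins and none of their 3 receptors was called by limma or by the exact Wilcoxon test, and 1 of these 7 genes, Rspo3, was under an unadjusted p of 0.05. Rspo3, an R-spondin needed by developing blood vessels in the mouse, read 5.03 to 6.19 (median 5.54) in TG and 5.87 to 6.35 (median 6.03) in WT mice. All TG mice but 2 lay below every WT mouse, and the log2 fold change of -0.47 (standard error 0.15) missed the threshold (adjusted p = 0.0558, limma). A second, dim feature of Rspo3 gave 0.41 in the opposite direction (adjusted p = 0.158 over all features, limma). Lgr4 likewise had a log2 fold change of -0.43 on its brightest feature (adjusted p = 0.289, limma) and 0.80 on a dimmer one (adjusted p = 0.106 over all features, limma).

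The secreted Wnt binders held both the member that separated the genotypes and the member with the largest fold change, in opposite directions. Sfrp2, a product of fibroblasts that binds Wnts outside the cell, was at 7.83, 8.18, 8.59 and 8.01 in TG females and 8.05, 7.77, 8.66 and 8.65 in TG males, against 7.56, 7.53, 7.19 and 6.98 in WT females and 7.45, 7.60, 7.71 and 6.93 in WT males. All 8 TG mice lay above all 8 WT mice, with 7.77 in the lowest TG mouse and 7.71 in the highest WT mouse, and in every other member the genotypes overlapped. Among all genes 0.86% had every TG mouse above every WT mouse. The log2 fold change was 0.85 (standard error 0.17, adjusted p = 0.00634, limma), or 1.80-fold, and the exact two-sided Wilcoxon p of 0.000155 is the smallest that 8 mice against 8 can give. It was still called without the 3 arrays that stood apart (adjusted p = 0.0122). Beside it, of 13 fibroblast markers Col1a2, a chain of type I collagen, was higher (log2 fold change 0.76, adjusted p = 0.00664, limma) and Lum, a matrix proteoglycan, was lower (log2 fold change -1.16, adjusted p = 0.0140, limma), and the mean over the list was 10.87 to 11.34 in TG and 11.13 to 11.31 in WT mice. The part of fibroblast content in the Sfrp2 result was not tested.

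Sfrp4, a related binder known from bone, was at 4.53, 4.46, 4.79 and 2.56 in TG females and 5.96, 4.45, 5.12 and 4.55 in TG males, against 5.71, 6.17, 5.46 and 6.59 in WT females and 6.13, 5.07, 5.11 and 6.19 in WT males. All TG mice but 2 lay below every WT mouse, TG male replicates 1 and 3 lay within the WT range, and TG female replicate 4 was far below the rest. The log2 fold change was -1.25 (standard error 0.34, adjusted p = 0.0247, limma), or 2.38-fold lower, and the call was lost without the 3 arrays that stood apart (adjusted p = 0.0790). Sfrp5, a binder made by fat cells, read 4.18 ± 0.83 in TG and 4.71 ± 0.74 in WT mice (SD, n = 8 each; adjusted p = 0.401, limma). Beside these, 3 of 5 adipocyte markers (Adipoq, Plin1 and Cidec) were lower in TG lungs, against 7.08% of all genes. The mean over the adipocyte list was 5.34 to 7.08 in TG and 6.29 to 8.42 in WT mice. The part of adipose tissue in these results was not tested. Frzb was dim, at 3.26 ± 0.97 in TG and 2.75 ± 0.27 in WT mice (SD, n = 8 each), and Wif1, Wnt inhibitory factor, read 6.85 ± 0.38 in TG and 6.76 ± 0.22 in WT mice (SD, n = 8 each). None of the 4 Dickkopf proteins was called by limma or by the exact Wilcoxon test (0 at an unadjusted p under 0.05). Dkk1, Dkk2 and Dkk4 were dim, the nearest to the threshold being Dkk4 at 2.50 ± 0.18 in TG and 2.97 ± 0.59 in WT mice (SD, n = 8 each; adjusted p = 0.182, limma). Only Dkk3 was not dim, at 11.06 to 11.81 in TG and 11.19 to 11.78 in WT mice. Axin2, often read as a gauge of β-catenin activity, was at 6.20, 6.63, 6.61 and 6.18 in TG females and 6.28, 6.89, 6.70 and 6.58 in TG males, against 6.67, 6.55, 6.76 and 6.90 in WT females and 6.84, 6.47, 7.05 and 6.29 in WT males. The genotypes overlapped over most of their range, and Axin2 did not pass (log2 fold change -0.18, standard error 0.13, adjusted p = 0.407, limma).

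**Figure D2:**
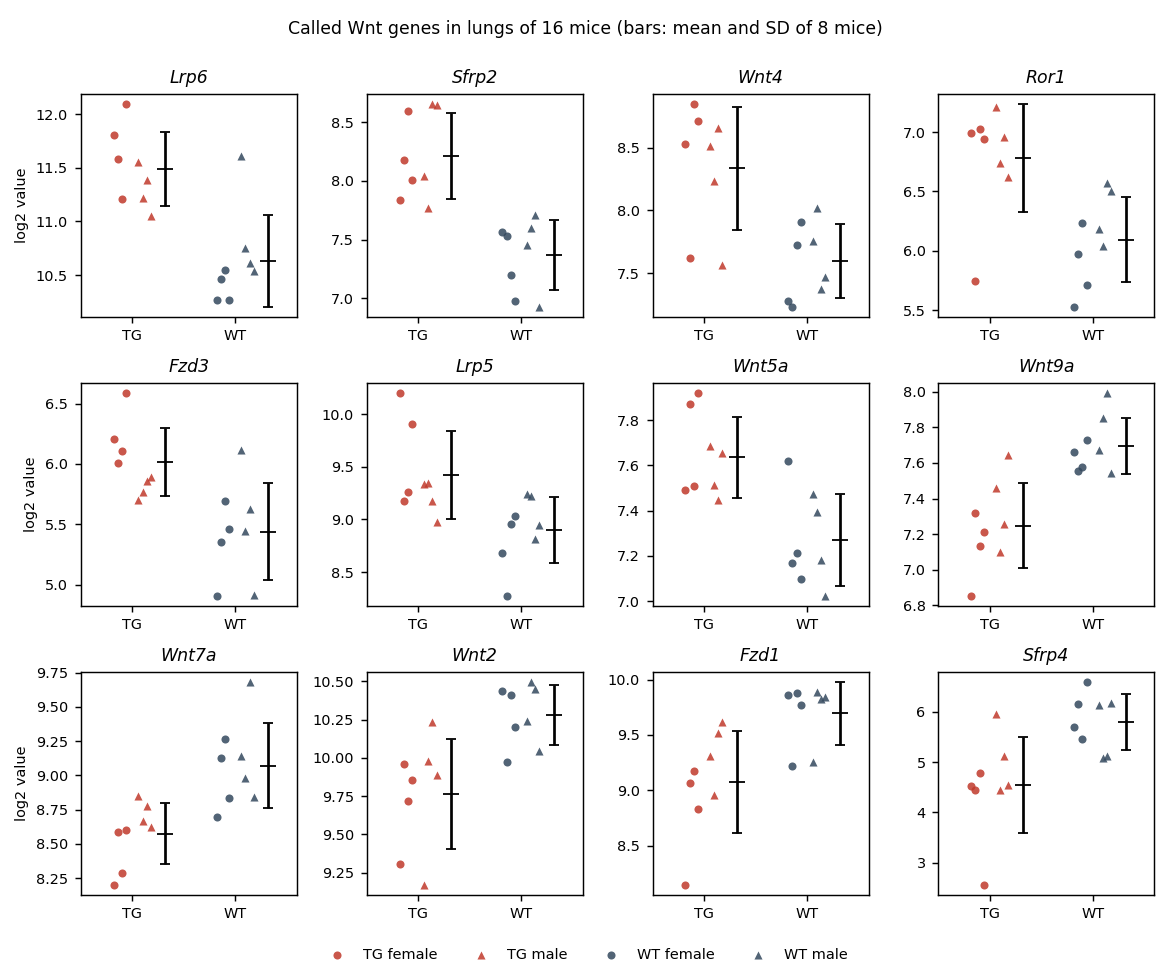
Log2 value (y axis) of the 12 called members in each mouse, TG left and WT right in every panel, circles for females and triangles for males, with the mean and SD of 8 mice as a bar. Sfrp2 is the only panel without overlap between TG and WT, and in Lrp6 a lone WT male at 11.61 lies among the TG mice.

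Several genes had more than 1 feature, and the files used here do not say which part of the transcript each covers. Of the 51 members 29 had 1 feature, 19 had 2 and 3 had 3. For the 22 with several, the 2 brightest features changed in the same direction in 11, and in 5 of the 9 whose second feature was not dim. The called members Lrp6 and Wnt7a had a bright second feature that was also called in the same direction, Wnt5a had one with the same sign that was not, and Lrp5 had one at -0.07. The second feature of Ror1, at -0.14, was dim. The 7 remaining called members rested on a single feature.

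**Figure D3:**
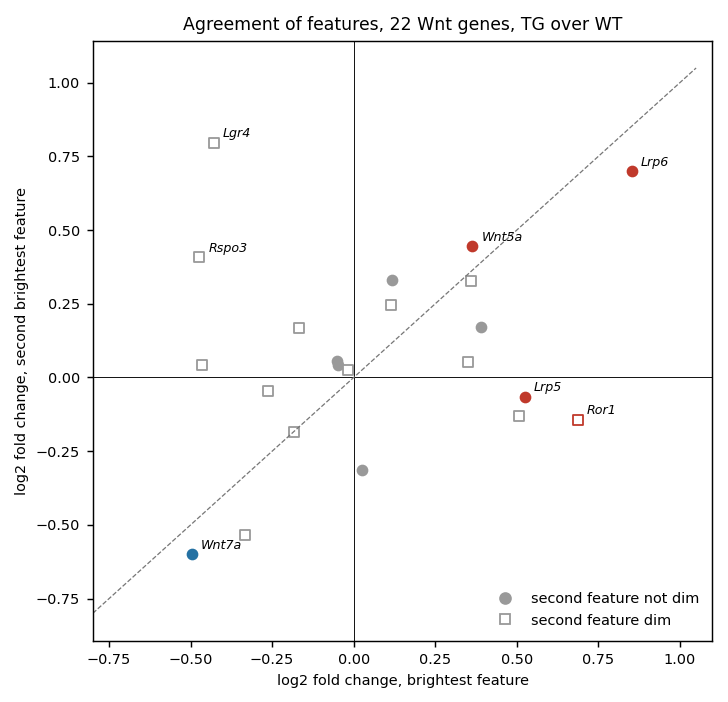
Log2 fold change of TG over WT on the brightest feature (x axis) and on the second brightest feature (y axis) of the 22 members with several features, with a dashed line where both are equal. Filled circles have a second feature at or above 4.09 and open squares a dimmer one, red and blue mark members called higher or lower, and Lrp6 and Wnt7a lie close to the line while Lrp5 lies near 0 on its second feature.

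The 12 called members changed in the same direction in both sexes, and 11 of them changed more in females. Calls were made on the mean of both sexes, which favours members with the same sign in each. Within the same fit, 10 of the 51 members were called in females (16.1% of all genes were) and 0 in males (0.646% of all genes were). The 10 included Fzd2, which was not called over both sexes, and left out Wnt2, Wnt5a and Wnt7a. Fzd2 had a log2 fold change of -0.96 in females (adjusted p = 0.0426) and -0.11 in males (limma). In males the lowest adjusted p was 0.166 for Sfrp2, and 6 members had an unadjusted p under 0.05 (limma). Lrp6 had a log2 fold change of 1.28 in females (adjusted p = 0.00390) and 0.42 in males (adjusted p = 0.594), and Lrp5 of 0.90 in females and 0.15 in males (limma). The 3 arrays that stood apart enter these values. For Lrp5, TG female replicates 1 and 4 read 10.20 and 9.91, against 9.18 and 9.26 in the other TG females. For Lrp6, WT male replicate 1 read 11.61, against 10.54 to 10.75 in the other WT males. Sfrp2 changed about equally, by 0.84 in females and 0.86 in males, and so did Wnt2, by -0.55 in females and -0.49 in males. The difference between the sexes was tested directly. None of the 51 members, and 0% of all genes, passed that test after adjustment (limma, lowest adjusted p of a member 0.330). Before adjustment 5 members had a p under 0.05 (9.80%), against 12.9% of all genes, and they are named here after their values were seen: Fzd6, Fzd8, Lrp6, Ror2 and Lrp5. Fzd6, a receptor that orients hair follicles, read 7.37, 7.96, 7.80 and 7.43 in TG females and 8.37, 8.14, 7.79 and 8.18 in WT females, but 8.23, 8.25, 8.25 and 8.39 in TG males and 7.40, 7.79, 7.37 and 8.26 in WT males. TG females thus lay mostly below WT females (log2 fold change -0.48) and TG males mostly above WT males (0.57), with an unadjusted p of 0.00224 for the difference.

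**Figure D4:**
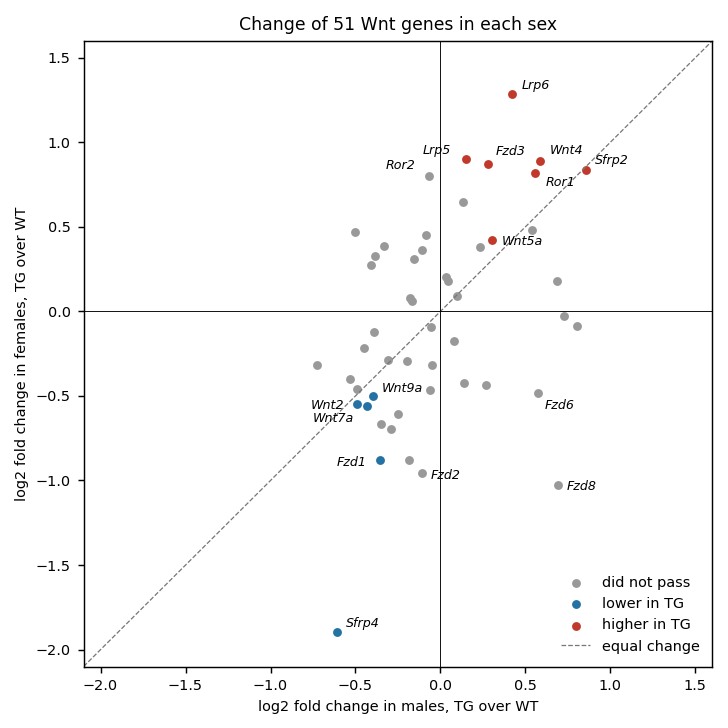
Log2 fold change of TG over WT in males (x axis) and in females (y axis) for the 51 members, with a dashed line of equal change. Called members, in red and blue, lie on the upper right and lower left, Lrp6 and Sfrp4 lie far from the line on the female side, and Fzd6 and Fzd8 lie on the lower right.

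Genes around the members were read from 5 lists, each described by its counts beside the 6.05% and 7.08% of all genes that were higher and lower. The mean over each list lay above 4.09 in every mouse, although each list also held dim genes. Of genes at or above 4.09, 19.0% were called in either direction, against 2.19% of dimmer genes, and the counts are to be read beside these shares too. Of 17 other secreted modulators and Wnt secretion genes, 2 were higher and 1 was lower. Wls, the carrier that brings Wnts to the cell surface for release, was at 9.94 to 10.78 in TG and 10.86 to 11.20 in WT mice, with no overlap (log2 fold change -0.60, adjusted p = 0.00405, limma), while Apcdd1, a membrane inhibitor that binds Wnt and Lrp5, was at 8.85 to 9.74 in TG and 7.87 to 8.77 in WT mice, again with no overlap (log2 fold change 0.80, adjusted p = 0.00645, limma). A separation like that of Apcdd1, with TG mice higher, was found in 0.86% of all genes. The share separated like Wls, with TG mice lower, was not counted. Kremen1, which works with Dickkopf proteins to remove Lrp6 from the surface, had a log2 fold change of 0.41. With the mean of all features of a gene, Wls read -0.15 and Kremen1 0.06, and both lost their call (adjusted p = 0.396 and 0.848, limma). Kremen1 lost its call in 14 of 30 alternatives in all. Of 10 other receptors and receptor turnover genes 3 were higher and 2 were lower. Ptk7 (1.15), a planar polarity receptor, Adgra2 (0.66) and Lrp4 (0.53) were higher on the log2 scale, and Tspan12 (-0.69), the partner of Fzd4 in Norrin signalling, and Reck (-0.62) were lower. Lrp4 lost its call with the mean of all features (0.13, adjusted p = 0.667, limma). Adgra2 and Reck together form a receptor complex for Wnt7a and Wnt7b in brain endothelium of mice, and here they changed in opposite directions, although Adgra2 read -0.11 where the platform's older gene names chose another feature for it.

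Of 37 genes of the intracellular β-catenin pathway, 8 were higher and 0 were lower (17 higher and 0 lower at an unadjusted p under 0.05, and 7 called by the exact Wilcoxon test), with a median log2 fold change of 0.26. Those with the smallest adjusted p were Ctnnbip1, an inhibitor that keeps β-catenin from TCF factors (0.66), Tnks, which marks Axin for removal (0.67), Dvl3, a Dishevelled protein downstream of Frizzled (1.33), Gsk3b, the kinase that marks β-catenin for removal (0.83), Ppp2r5e, a phosphatase subunit (0.37) and Chd8, a chromatin remodeller (0.39). The members of this list thus included inhibitors and transducers alike, and Gsk3b read -0.0023 and Ppp2r5e -0.20 where all features of a gene were averaged. Of 19 β-catenin target genes outside the 51 members, 1 was higher (Apcdd1, also in the first list) and 3 were lower: Id2 (-0.54), Bambi (-0.40) and Cd44 (-0.38), the last of which read -0.10 and lost its call with the mean of all features (adjusted p = 0.682, limma). Of 30 genes of planar polarity and signalling without β-catenin, 5 were higher and 2 were lower. Plcb1, a phospholipase that raises calcium, had the largest change (1.43), followed by the calcium-responsive factors Nfatc4 (0.65), Nfatc1 (0.51) and Nfatc3 (0.46), whereas Rac1 (-0.31), a small GTPase of cell movement, and Prickle3 (-0.46) were lower, the second of them reading 0.03 where all features were averaged. Daam1, a formin that binds Dishevelled, had a log2 fold change of 0.32. Nfatc3 (0.04) and Nfatc1 (0.35) lost their calls with the mean of all features (adjusted p = 0.843 and 0.117, limma). Of 30 alternatives, the call was lost in 18 for Daam1, 17 for Cd44, 16 for Nfatc1, 12 for Nfatc3 and 11 for Chd8. It was lost in 10 for Bambi, 9 for Prickle3, 7 for Id2 and 3 each for Gsk3b and Ppp2r5e. Ctnnbip1, Tnks, Dvl3, Plcb1 and Nfatc4 lost it in males alone only, where the others named here lost it too.

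Other markers that moved with genotype are given beside these results, and their part in them was not tested. Of all genes 6.05% were higher and 7.08% lower, and of genes that were not dim 19.0% were called. Of 5 basal cell markers Krt14 and Trp63 were higher, with a mean over the list of 6.10 to 8.34 in TG and 5.44 to 6.71 in WT mice. Of 8 endothelial markers 3 were higher and 0 lower (4 higher and 0 lower at an unadjusted p under 0.05, 2 called by the exact Wilcoxon test), with means of 11.83 to 12.43 in TG and 11.94 to 12.17 in WT mice. Of 8 macrophage markers 3 were lower (9.55 to 10.31 in TG and 10.15 to 11.03 in WT mice), and of 5 pericyte markers 2 were higher and 1 was lower (10.16 to 10.50 in TG and 9.66 to 10.46 in WT mice). Of 4 B cell markers 1 was higher and 2 were lower (8.51 to 9.81 in TG and 8.90 to 10.44 in WT mice). In each marker list not yet given at most 1 gene was called, which was higher for lymphatic endothelial (Prox1) and mesothelial (Msln) markers and lower for smooth muscle (Actg2), ciliated cell (Tppp3), T cell (Cd8a), eosinophil (Siglecf, also a macrophage marker) and Schwann cell (Mbp) markers, while none of 6 cardiac muscle markers was called (0 at an unadjusted p under 0.05, 0 by the exact Wilcoxon test). Without the 3 arrays that stood apart, an alternative added after seeing the data, 5 members were still called, Lrp6, Sfrp2 and Fzd3 as higher and Wnt9a and Fzd1 as lower.

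Leaving out 1 mouse at a time showed how far each call rested on single arrays. Lrp6, Sfrp2 and Wnt9a were called in all 16 such fits (highest adjusted p 0.0130, 0.0153 and 0.0354, limma). Wnt7a was lost without WT female replicate 2 (adjusted p = 0.0511), and Sfrp4 without replicate 4 of the WT females or of the WT males (highest adjusted p 0.0537). Ror1 lost its call in 6 fits, Wnt4 and Fzd3 in 7 each, Fzd1 in 8, Wnt2 in 9, and Wnt5a and Lrp5 in 12 each, with highest adjusted p-values between 0.0583 for Fzd1 and 0.0930 for Lrp5. Those of Ror1 were TG female replicates 1 and 4, TG male replicate 1, WT female replicates 1 and 4 and WT male replicate 2. Those of Fzd1 were TG male replicates 1 and 2, WT female replicates 1, 3 and 4 and WT male replicates 2, 3 and 4. Wnt4 was lost without TG female replicate 4, TG male replicates 1 and 3, WT female replicates 1 and 2 and WT male replicates 3 and 4. Fzd3 was lost without TG female replicate 4, TG male replicates 3 and 4, WT female replicates 1 and 2 and WT male replicates 2 and 4. For Wnt2 these were TG female replicates 1 and 4, TG male replicates 1 and 4, WT female replicates 1, 3 and 4 and WT male replicates 2 and 3. Wnt5a stayed called only without TG female replicates 1 or 3, WT female replicate 1 or WT male replicate 1, and Lrp5 only without TG female replicates 2 or 3, WT female replicate 4 or WT male replicate 1. No log2 fold change of the 12 turned its sign in these fits, which leaving out 1 of 16 arrays could hardly do to a called change.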

How the data were processed

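RNA from lung homogenates of 16 mice (4 TG females, 4 TG males, 4 WT females and 4 WT males, aged 8 weeks) was amplified and hybridised to Agilent arrays. The methods give an RNeasy kit and Cy5 dye, the labels Trizol plus a column and Cy3 dye. Background correction and quantile normalization of the intensities were done by the authors in limma (version, background method, filters and genome build not given in the sources used here), and the authors deposited log2 values per feature. The distributions of the arrays were nearly equal (largest difference 0.00707). The table carries no signal over background, so the number of arrays and the brightness of a feature limit the precision.

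Of 62976 features, 43941 had a single gene symbol. Symbols were updated through a RefSeq gene table (GRCm38.p6), which left the same 51 members, with 76 features. The brightest feature over 16 arrays stood for each of 24306 genes. limma 3.58.1 in R 4.3.3 fitted 4 group means, and the contrasts were TG against WT, the same in each sex, and the difference between sexes. The code of the fit was checked on simulated data with known changes, drawn independently and with the WT spread in both genotypes. That check does not cover outlying arrays or a wider spread in TG mice. Figures were drawn with matplotlib 3.10.9. Samples were grouped by title.

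Named genes were Fosl2, the called members, further members by adjusted p up to 30, and up to 6 called genes of each pathway list. Dkk3, Fzd4, Fzd6, Fzd8, Wif1, Rac1 and members with an outlying array were added after their values were seen, as were the marker genes. Members and lists were chosen with earlier results of these data known. Alternatives were the genotype alone, a replicate block, the mean of all features, a filter on dim genes, cyclic loess, median centring, trend and robust variance, array weights, an exact Wilcoxon test, each sex alone, platform gene symbols, each array left out, and 2 sets of arrays left out that were added after seeing the data.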

Additional observations from a re-analysis of the deposited data

Results flagged for a closer look

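In 11 of 104 groups of 8 mice (a genotype in 1 of 52 genes examined), the value of 1 mouse lay far from the others, and chance flags about 1 in 20 groups. WT male replicate 1 accounted for 4 of these values. Its Lrp6 value of 11.61 was above the 10.27 to 10.75 of the other WT mice, its Fzd2 value of 8.46 was below their 9.15 to 9.59, its Wnt10b value of 7.86 was above their 6.30 to 7.04, and its Wnt9b value of 4.99 was above their 2.39 to 3.55. TG female replicate 1 read 6.25 for Fzd7, against 7.10 to 7.81 in the other TG mice, and 6.96 for Lgr6, against 4.83 to 5.59. TG female replicate 4 read 2.56 for Sfrp4, against 4.45 to 5.96 in the other TG mice, and TG female replicate 2 read 5.75 for Ror1, against 6.62 to 7.21. The remaining values were 5.66 for Wnt10b in TG female replicate 3 (others 6.36 to 6.89), 4.62 for Wnt16 in TG male replicate 1 (others 2.09 to 3.14) and 10.48 for Fzd4 in WT female replicate 1 (others 11.35 to 12.03).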

How the results depend on the processing

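The count of 7 higher members was 4 with the mean of all features of a gene, 3 with females alone and 0 with males alone (limma), and the count of 5 lower members was 1 with females alone and 0 with males alone. Without the 3 arrays that stood apart 3 were higher and 2 were lower, and without TG female replicates 1 and 4 these counts were 2 and 0. Leaving out 1 mouse gave 2 to 7 higher and 2 to 7 lower members. The higher count was 2 without TG female replicate 4, 3 without TG male replicates 1 or 3, WT female replicates 1 or 2, or WT male replicates 2 or 4, and 4 without TG male replicate 4 or WT male replicate 3. The lower count was 2 without WT female replicate 4 and 3 without TG male replicate 1, WT female replicates 1 or 3, or WT male replicates 2, 3 or 4. Fewer mice entered these fits. The number of members that differed between sexes was 0 in every fit it was run in. Cyclic loess, median centring and platform symbols gave the same 7 and 5. The deposited values were already quantile normalized, so median centring and cyclic loess could change little.

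With the replicate number as a block 4 members were higher and 5 lower. Same-numbered arrays deviated together weakly if at all, with correlations of -0.106 to 0.172, 3 of 24 over 0.1 and 7 of 16 arrays closest to their own number. These counts were not tested against chance. The labels name no pairs, and the numbers were not taken as pairs.

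Of the called members, Lrp6 and Sfrp2 lost their call in males alone only. By the exact Wilcoxon test 10 members passed, and Lrp5 and Wnt4 lost their call there and with array weights. Lrp5 also lost it with the genotype alone, and Wnt5a with trend and robust variance. Direction turned, in log2 fold change, for Ror2 in males alone (-0.0675), Fzd5 in females alone (-0.0273), Fosl2 in females alone (0.14), Adgra2 with platform symbols (-0.11), and with the mean of all features for Lgr4 (0.16), Fosl2 (2.31), Gsk3b (-0.0023), Ppp2r5e (-0.20) and Prickle3 (0.03). The mean gives every feature of a gene equal weight; the cause was not tested otherwise. Dim features limit 17 members, and the filter on dim genes left out some of the members and gave 6 higher and 4 lower.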
